A study of Mus musculus with 32 samples.

Results

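The 7 genes described here carry the signal of leukaemia inhibitory factor (LIF) into the nucleus of mouse embryonic stem cells: the receptor subunits *Lifr* and *Il6st* (gp130), the Janus kinases *Jak1*, *Jak2* and *Jak3*, the transcription factor *Stat3* and its feedback inhibitor *Socs3*. They were chosen by name, as the rows of the gene count table whose identifiers belong to these symbols, and they are 7 of the 51826 genes in the table. LIF brings LIFR and gp130 together, the receptor-bound Janus kinases phosphorylate the receptor tails and STAT3, and phosphorylated STAT3 enters the nucleus and switches on its targets. *Socs3* is one of these targets, and the protein it encodes binds gp130 and the kinases and damps the signal. In mouse embryonic stem cells this pathway is known for sustaining self-renewal, and LIF was absent from all media in which the samples were taken, so the values below describe the transcripts of the pathway without added ligand.

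RNA was sequenced from 32 libraries of 11 conditions. RGd2 is a mouse embryonic stem cell line with a short-lived GFP reporter knocked in at *Rex1* (*Zfp42*), and all the mutants were made in it. RGd2 cells were sampled in 2i (N2B27 medium with the GSK3 inhibitor CHIR99021 and the MEK inhibitor PD0325901), after 5 passages in 2i (2i p5), 16 h and 72 h after transfer to N2B27 alone (N16h and N72h), and after 2 passages in CHIR99021 alone (CHp2). *Rbpj*-KO and *Etv5*-KO cells were sampled in 2i and at N16h, ER-dKO cells lacking both *Etv5* and *Rbpj* after 5 passages in CHIR99021 (CHp5), and ETR-tKO cells, which also lack *Tcf3* (gene symbol *Tcf7l1*), after 5 passages in N2B27 (Np5). By the labels, which were followed here, each condition had 3 libraries except *Etv5*-KO at N16h, which had 2, whereas in the study's methods the group short of a library is RGd2 N16h. Within a group, the mutant libraries each came from a separate clonal line, whereas each RGd2 condition held 2 libraries of the parental line and 1 of a clone derived from it. By their clone names, ETR-tKO replicates 14 and 15 share a parent clone that replicate 13 does not. Per the study's methods, cell lines were as a rule expanded with CHIR99021 and LIF and moved to 2i before an assay. ER-dKO and ETR-tKO cells were sampled only at 5 passages, and no RGd2 culture had the same passage number in the same medium.

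Gene counts per library ranged from 5986857 to 71439411, and the lowest total was that of RGd2 2i replicate 33, the clonal library of its group. A normalized count below is the count divided by a size factor from ERCC spike-in RNA, FPKM is fragments per kilobase of counted length and 1e6 gene counts, and a gene was called when its adjusted p was under 0.05 (edgeR's quasi-likelihood test, two-sided, Benjamini-Hochberg over 18892 genes) and its mean FPKM was at least 1 in either group. Spike-in scaling keeps differences in the total RNA measured, and the median log2 fold change of all genes tested lay between -0.35 and 0.44 over the comparisons. Both extremes came from comparisons that include RGd2 2i. There the spike-in share of counts was 0.991, 1.193 and 1.393% in replicates 31, 32 and 33. Its SD was 0.201, against 0.0128 to 0.0869 in the other groups. Differences in spike-in input and in total RNA cannot be told apart. TMM, a scaling that centers most genes on no change, is therefore given beside a value where it matters. In bulk RNA, fewer cells with a transcript and less transcript per cell cannot be told apart. The 7 genes all passed the low-count filter, and no count or median over them is used as evidence for the set.

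The targeted genes and cell type markers were checked first. In RGd2, *Etv5* had an FPKM of 92.9 to 135 (group means), against 14.97 to 26.7 in the lines that lack it. *Rbpj* had 3.16 in *Rbpj*-KO in 2i against 12.4 in RGd2, and *Tcf7l1* had 0.795 in ETR-tKO. The ER-dKO library labelled replicate 12 did not follow its label, and its normalized count of *Rbpj* was 3489, above the 2830.2 to 3385 of RGd2 2i p5, while replicates 10 and 11 had 1138 and 1307. The lines were made with guide RNAs against particular exons, so a gene count can remain after a deletion, and ER-dKO results are also given without this library where it changes them. The pluripotency marker *Pou5f1* was present in all conditions, at 272 to 555 FPKM. All 5 pluripotency markers listed were called lower in RGd2 at N72h than at N16h, and in CHp2 than at 2i p5. Formative markers were highest at N72h (*Fgf5* at 11.1 FPKM), and T, a mesendoderm marker, reached 69.1 FPKM in RGd2 CHp2. Of the 5 fibroblast or feeder genes listed, the 3 collagen genes stayed at or below 0.116 FPKM and *Dcn* reached 0.419. *Thy1*, which other cell types also express, was 5.78 at N72h and 0.104 to 1.30 elsewhere. *Thy1* was called higher at N72h than at N16h, in *Etv5*-KO at N16h than in RGd2 at N16h or in *Etv5*-KO in 2i, and in ETR-tKO than at 2i p5, and its part in the members' differences there was not tested.

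The members lie on 6 chromosomes of the mouse genome (mm10). The receptor genes are *Lifr* (ENSMUSG00000054263.11, chromosome 15, 7129559 to 7197489, plus strand) and *Il6st* (ENSMUSG00000021756.12, chromosome 13, 112464070 to 112510086, plus strand). The kinase genes are *Jak1* (ENSMUSG00000028530.14, chromosome 4, 101152367 to 101265282, minus strand), *Jak2* (ENSMUSG00000024789.12, chromosome 19, 29251828 to 29313080, plus strand) and *Jak3* (ENSMUSG00000031805.17, chromosome 8, 71676296 to 71690575, plus strand). *Jak3* overlaps *Insl3* on the same strand, so fragments in shared exons cannot be assigned and its values are uncertain to that extent. The last are *Stat3* (ENSMUSG00000004040.16, chromosome 11, 100885098 to 100939540, minus strand) and *Socs3* (ENSMUSG00000053113.3, chromosome 11, 117966079 to 117970047, minus strand).

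Promoter sequence was read from RefSeq (GRCm38.p6), which held 8 start sites for the 7 genes, each as 300 bases that span the start and lie mostly before it. Both strands were searched for TTCNNNGAA (the STAT dimer motif), TGGGAA (RBPJ), CCGGAA (the ETS core bound by the family of ETV5) and CTTTGAT (TCF), and the matches found in the members did not overlap each other. Of 32851 mouse promoters of this length, 8.30% held the STAT motif, 25.6% the RBPJ motif, 14.9% the ETS motif and 3.73% the TCF motif. Among the members, the *Socs3* promoter held 1 STAT motif, which began 154 bases before the RefSeq start, and the *Il6st* promoter held 2 ETS motifs, 218 and 147 bases before the start. The stretches around them are shown because *Socs3* is the member with the widest range of levels and *Il6st* the receptor subunit that fell at both times after 2i withdrawal, and the capitals mark the motifs. The *Socs3* stretch is chr11:117969467-117969566 on the minus strand and the *Il6st* stretch chr13:112463840-112463939 on the plus strand, each 100 bases. The RefSeq start of *Socs3* lies within the span of the counted gene model given above, so its stretch does too. A match is a description of these letters and does not show binding.
Socs3: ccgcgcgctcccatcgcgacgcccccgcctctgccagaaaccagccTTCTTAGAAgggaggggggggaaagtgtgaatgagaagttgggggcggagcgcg
Il6st: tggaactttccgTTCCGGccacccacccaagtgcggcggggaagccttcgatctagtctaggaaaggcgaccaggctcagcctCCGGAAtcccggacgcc

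Over the 11 conditions the members differed in how far they ranged. Mean normalized counts spanned 36.2-fold in *Socs3*, 7.12-fold in *Lifr*, 5.98-fold in *Jak3*, 5.26-fold in *Il6st*, 4.01-fold in *Jak2*, 2.26-fold in *Stat3* and 2.02-fold in *Jak1*. Per length, the receptor subunits and *Jak1* were the more abundant transcripts: mean FPKM was 3.53 to 22.1 for *Lifr*, 4.18 to 19.0 for *Il6st* and 6.50 to 12.3 for *Jak1*. It was 1.24 to 4.81 for *Jak2*, 1.10 to 6.005 for *Jak3*, 2.22 to 4.50 for *Stat3* and 0.111 to 3.63 for *Socs3*. *Jak1*, the kinase most used by gp130, was thus above *Jak2* and *Jak3* in mean FPKM in every condition. In the single library ETR-tKO replicate 13, however, *Jak3* had 7.69 FPKM and *Jak1* 5.49.

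*Lifr* and *Il6st*, which form the receptor complex, were both lowest in RGd2 at N72h. *Lifr* ran from 6143 ± 459 (SD, n = 3) in ETR-tKO and 5129 ± 135 (SD, n = 3) in ER-dKO down to 934 ± 104 (SD, n = 3) in RGd2 CHp2 and 863 ± 111 (SD, n = 3) at N72h. In that order ETR-tKO stood above ER-dKO without overlap, the 5 neighboring pairs from ER-dKO to RGd2 at N16h overlapped in their libraries, and RGd2 CHp2 and N72h overlapped with each other. *Il6st* fell into a high range and a low range that no library bridged: its means were 4309.6 to 5766 in the 4 conditions in 2i, ER-dKO and ETR-tKO, and 1097 to 2653 in the other 5. *Jak3*, which is best known from lymphocytes, was highest in ETR-tKO (856 ± 159 (SD, n = 3)) and lowest in RGd2 at N16h (143 ± 15.8 (SD, n = 3)).

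*Jak2* was highest in RGd2 CHp2 at 609 ± 97.7 (SD, n = 3) and lowest in RGd2 at N16h at 152 ± 22.7 (SD, n = 3). *Stat3* was highest in *Rbpj*-KO in 2i at 1168 ± 48.7 (SD, n = 3), above every other neighbor in the order, and lowest in RGd2 at N16h at 516 ± 40.6 (SD, n = 3), with the 9 conditions between them overlapping from one to the next. *Jak1* showed the least spread, and apart from *Etv5*-KO at N16h at 2494 ± 138 (SD, n = 2) all neighbors in its order overlapped. *Socs3* was near the limit of counting in every 2i condition, where its raw counts were 2 to 21 per library in RGd2, 2 to 7 at 2i p5, 8 to 33 in *Rbpj*-KO and 8 to 18 in *Etv5*-KO. Its normalized count was 7.20 ± 4.58 (SD, n = 3) at 2i p5 and 260.4 ± 53.1 (SD, n = 3) in CHp2. Between them, N16h in RGd2 and *Rbpj*-KO overlapped, ETR-tKO and ER-dKO each stood alone, and RGd2 N72h overlapped CHp2, while *Etv5*-KO at N16h overlapped the 2i conditions.

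**Figure D1:**
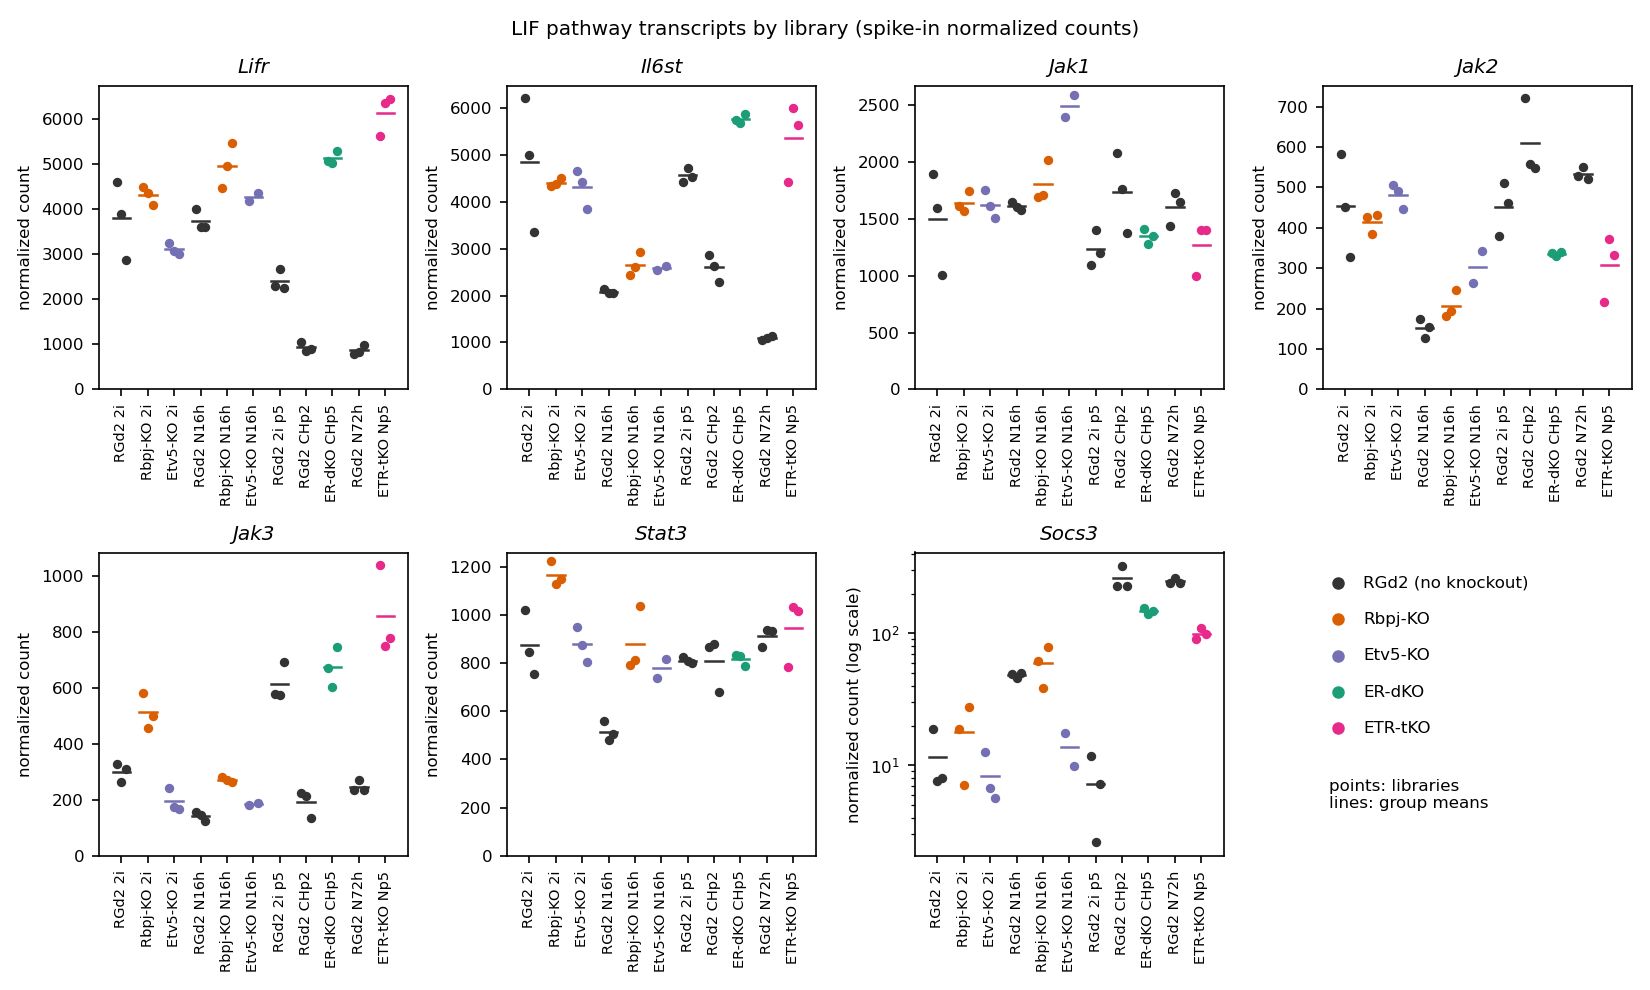
Spike-in normalized counts (vertical axes, linear from 0 except for Socs3, which is on a log axis) of the 7 genes in each of the 32 libraries, by condition (horizontal axes); points are libraries and short lines are group means, colored by genotype. Lifr and Il6st are low in RGd2 CHp2 and N72h and high in ER-dKO and ETR-tKO, and Socs3 is at most 27.7 in the 2i libraries and at least 229.7 in the RGd2 CHp2 and N72h libraries.

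Withdrawal of 2i for 16 h asks how the pathway's transcripts move as cells leave the naive state. In RGd2, *Il6st*, *Jak2*, *Jak3* and *Stat3* fell and no member at or above the FPKM minimum rose, while *Lifr* and *Jak1* did not pass the test. With TMM both were called higher, *Jak1* at 0.31 (adjusted p = 0.0158). Across the transcriptome, 8.63% of the 11748 genes at or above the FPKM minimum were called higher and 37.4% lower, and the split of calls was 1014 higher and 4388 lower with the spike-ins, 2648 and 2863 with TMM. The gp130 transcript *Il6st* had normalized counts of 6214, 4995 and 3355 in 2i and 2143, 2048 and 2055 at N16h, a log2 fold change of -1.23 ± 0.13 (SE, adjusted p = 4.68e-10). The groups did not overlap, and the 2i libraries differed widely, with replicate 33 the lowest. *Jak2* went from 582, 451 and 327 to 173, 128 and 155, or -1.62 ± 0.18 (SE, adjusted p = 9.2e-10), 2.99-fold lower, which was the largest drop among the members. *Jak3* went from 329, 263 and 311 to 157, 147 and 126, or -1.06 ± 0.17 (SE, adjusted p = 1.93e-06). *Stat3* went from 1020.1, 848 and 755 to 561, 481 and 507, or -0.78 ± 0.12 (SE, adjusted p = 3.07e-06). For these 4 genes every N16h library was below every 2i library. The calls held under every alternative run, with TMM log2 fold changes of -1.002, -1.39, -0.82 and -0.55.

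*Lifr*, the LIF-binding subunit, stood at 4607, 3902 and 2875 in 2i and 4001, 3600.1 and 3596 at N16h, and its log2 fold change of -0.03 ± 0.12 (SE, adjusted p = 0.864) turned to 0.19 with TMM (adjusted p = 0.0483). *Socs3* moved the other way from the 4 genes that fell. Its normalized counts were 18.8, 7.64 and 8.08 in 2i and 48.8, 46.0 and 50.1 at N16h, and the groups did not overlap. The log2 fold change was 1.96 ± 0.37 (SE, adjusted p = 4.06e-05), but mean FPKM stayed under 1 in both groups (0.136 and 0.686), so it was not counted as called. From 33 counts in the 3 libraries in 2i and 203 at N16h, the ratio was 3.87, with a 95% exact counting interval of 2.67 to 5.78, which covers counting error only.

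Between 16 h and 72 h, as cells passed into the formative state, 6 of the 7 members changed, and 3 of the 4 that had fallen at 16 h rose again. Across all genes, 31.3% of the 12280 genes at or above the FPKM minimum were called higher and 29.6% lower. *Lifr* fell from 4001, 3600.1 and 3596 to 775, 826 and 988, a log2 fold change of -2.11 ± 0.12 (SE, adjusted p = 1.09e-17), 4.33-fold lower. *Il6st* fell further, from 2143, 2048 and 2055 to 1058, 1095 and 1139, or -0.92 ± 0.13 (SE, adjusted p = 1.51e-07). Both receptor subunits were therefore lowest at N72h, and no library of one time reached the range of the other.

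The kinase *Jak2* rose from 173, 128 and 155 to 528, 549.7 and 520.3, or 1.81 ± 0.18 (SE, adjusted p = 1.7e-11), *Jak3* by 0.77 ± 0.16 (SE, adjusted p = 0.000108) and *Stat3*, from 561, 481 and 507 to 866, 938 and 934, by 0.82 ± 0.12 (SE, adjusted p = 3.76e-07). *Jak1* had means of 1612 ± 38.0 (SD, n = 3) and 1604 ± 151 (SD, n = 3), and the 95% interval of its log2 fold change was -0.30 to 0.29. *Socs3* rose from 48.8, 46.0 and 50.1 to 241, 264 and 242, or 2.36 ± 0.27 (SE, adjusted p = 1.12e-09). All 6 calls held under every alternative, and the scaling mattered little here, since the log2 fold changes with TMM were -2.11, -0.92, 1.82, 0.77, 0.82 and 2.36 in the order given. The formative markers moved with these changes: *Fgf5* had an FPKM of 2.57 at N16h and 11.1 at N72h, and the pluripotency gene *Zfp42* 188 and 11.6, and their part in the members' changes was not tested.

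RGd2 cells kept for 5 passages in 2i were the reference for the long cultures, and they were compared with RGd2 cells in 2i. *Lifr* was lower at 2i p5 and *Jak3* higher, and the other members did not pass the test. Across all genes, 2.89% of the 11552 genes at or above the FPKM minimum were called higher and 49.4% lower, and the split was 334 higher and 5709 lower with the spike-ins, 1674 and 1327 with TMM. *Lifr* had 4607, 3902 and 2875 in 2i and 2288, 2664 and 2251 at 2i p5, a log2 fold change of -0.67 ± 0.12 (SE, adjusted p = 4.65e-05), or -0.32 with TMM. *Jak3* had 329, 263 and 311 and 579.7, 575 and 692, or 1.05 ± 0.16 (SE, adjusted p = 5e-06), and 1.42 with TMM. Neither pair of groups overlapped, and *Jak3* rose against a general shift downward. *Il6st* had 4433, 4732 and 4536 at 2i p5, within the range of the 2i libraries, and its log2 fold change of -0.10 ± 0.13 (SE, adjusted p = 0.576) became 0.26 with TMM (adjusted p = 0.0177). Without RGd2 2i replicate 33, 4 members were called, adding *Il6st* at -0.29 (adjusted p = 0.0229) and *Jak1* at -0.49 (adjusted p = 0.00226). The number of passages and any difference in earlier culture with LIF cannot be told apart in this comparison.

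Omitting the MEK inhibitor for 2 passages while keeping CHIR99021 (RGd2 CHp2) was compared with 2i p5. Both receptor subunits were lower and *Socs3* was higher. In all, *Jak1* and *Socs3* were called higher and *Lifr*, *Il6st* and *Jak3* lower, where over all genes 28.6% of the 12054 genes at or above the FPKM minimum were called higher and 13.6% lower. The split was 3450 higher and 1635 lower with the spike-ins, 2755 and 3442 with TMM. *Lifr* had 2288, 2664 and 2251 at 2i p5 and 1051, 854 and 897 in CHp2, a log2 fold change of -1.37 ± 0.12 (SE, adjusted p = 7.7e-12). *Il6st* had 4433, 4732 and 4536 and 2868, 2639.8 and 2292, or -0.81 ± 0.13 (SE, adjusted p = 2.78e-06). *Jak3* had 579.7, 575 and 692 and 223, 213 and 136, or -1.69 ± 0.17 (SE, adjusted p = 6.65e-11). None of these 3 genes had overlapping libraries. *Jak1* was called higher at 0.49 ± 0.15 (SE, adjusted p = 0.00852) although its libraries overlapped, and the call was lost without RGd2 2i p5 replicate 1, at 0.42 (adjusted p = 0.0551), or without RGd2 CHp2 replicate 4, at 0.35 (adjusted p = 0.1).

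*Socs3* had the largest difference of any member in the study. It had 11.8, 2.63 and 7.20 at 2i p5, from raw counts of 5, 2 and 7, and 229.7, 322 and 229.8 in CHp2. The log2 fold change was 5.299 ± 0.39 (SE, adjusted p = 2.37e-14), and the ratio from summed counts was 41.7, with a 95% exact counting interval of 24.6 to 76.8. Every alternative called it, but the size depends on 14 counts. *Stat3* itself had 825, 809 and 799.7 at 2i p5 and 868, 881 and 680.1 in CHp2, so the means of 811 ± 12.7 (SD, n = 3) and 809.7 ± 112 (SD, n = 3) lay together while its target *Socs3* rose. T, at 5.81 FPKM at 2i p5 and 69.1 in CHp2, moved with these differences. Of the pluripotency markers 0 of 5 were called higher and 5 lower (0 and 5 with TMM) in this comparison. Of the formative markers 4 of 4 were called higher and 0 lower (4 and 0 with TMM), and of the mesendoderm markers 1 of 2 higher and 0 lower. The part of these markers in the members' differences was not tested.

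ER-dKO cells, which expand in CHIR99021 alone, were compared with RGd2 in the same inhibitor and with RGd2 at 2i p5. Against RGd2 CHp2, *Lifr*, *Il6st* and *Jak3* were higher and *Jak1*, *Jak2* and *Socs3* lower, where over all genes 28.3% of the 12083 genes at or above the FPKM minimum were called higher and 21.3% lower. *Lifr* had 5075, 5029.5 and 5282 in ER-dKO against 1051, 854 and 897 in RGd2, a log2 fold change of 2.46 ± 0.13 (SE, adjusted p = 3.85e-19), 5.49-fold. *Il6st* had 5740.1, 5678 and 5881 against 2868, 2639.8 and 2292, or 1.15 ± 0.13 (SE, adjusted p = 1.43e-09). *Jak3* had 672, 603 and 746 against 223, 213 and 136, or 1.81 ± 0.16 (SE, adjusted p = 4.47e-12). In all 3 the lowest ER-dKO library exceeded the highest RGd2 library. *Jak2* had 338, 329 and 341 against 721, 557 and 547, or -0.85 ± 0.17 (SE, adjusted p = 5.67e-05). *Socs3* had 156, 139.5 and 147 against 229.7, 322 and 229.8, or -0.83 ± 0.25 (SE, adjusted p = 0.00646), and this call was lost without RGd2 CHp2 replicate 5, at -0.64 (adjusted p = 0.0755). Of the pluripotency markers 5 of 5 were called higher and 0 lower (5 and 0 with TMM) in this comparison, and of the formative markers 0 of 4 were called higher and 3 lower (0 and 3 with TMM), and their part in the members' differences was not tested.

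The call of *Jak1* at -0.37 ± 0.15 (SE, adjusted p = 0.0393) rested on overlapping libraries. It held in 7 of 13 alternatives. It was lost without RGd2 CHp2 replicate 4 (-0.23, adjusted p = 0.269) or replicate 5, with total spike-in size factors, or without any 1 of the 3 ER-dKO libraries, the last with values of -0.40 to -0.33. Without the library labelled ER-dKO replicate 12, the one that did not follow its *Rbpj* label, the values were 2.44 for *Lifr*, 1.13 for *Il6st*, 1.73 for *Jak3*, -0.86 for *Jak2* and -0.83 for *Socs3*, and all 5 stayed called. Genotype and passage number (5 against 2) cannot be told apart in this comparison.

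Against RGd2 2i p5, ER-dKO had higher *Lifr* and *Socs3*, and both held under every alternative. Over all genes 33.9% of the 11562 genes at or above the FPKM minimum were called higher and 8.43% lower, and the split was 3922 higher and 975 lower with the spike-ins, 2526 and 2368 with TMM. *Lifr*, at 2288, 2664 and 2251 in RGd2 2i p5, differed by 1.09 ± 0.12 (SE, adjusted p = 1.54e-09), and *Socs3* by 4.47 ± 0.39 (SE, adjusted p = 6.24e-12), a ratio of 22.5, with a 95% exact counting interval of 13.3 to 41.3. *Il6st* at 0.34 ± 0.13 (SE, adjusted p = 0.0398) and *Jak2* at -0.43 ± 0.17 (SE, adjusted p = 0.0433) passed narrowly. *Il6st* was not called with TMM, at 0.13, and was lost when any 1 of the 6 libraries was left out, where its values were 0.32 to 0.36. *Jak2* was lost with total spike-in size factors (-0.42, adjusted p = 0.0522), without RGd2 2i p5 replicate 2 (-0.34) or 3 (-0.42) or without any 1 ER-dKO library (-0.45 to -0.42). *Stat3* had 834, 830.3 and 788 in ER-dKO, overlapping the 825, 809 and 799.7 of RGd2 2i p5. Mean normalized counts of *Socs3* were 147 in ER-dKO, 7.20 in RGd2 2i p5 and 260.4 in RGd2 CHp2. ER-dKO cells were in CHIR99021 alone and RGd2 2i p5 cells in 2i, so genotype and medium cannot be told apart here. The 2 comparisons of ER-dKO share the ER-dKO libraries.

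ETR-tKO cells grow in N2B27 without inhibitors or LIF, and they were set against RGd2 at N72h, the differentiating cells in the same medium, and against RGd2 2i p5. Against N72h the receptor stood far higher: *Lifr*, *Il6st* and *Jak3* were called higher and *Jak2* and *Socs3* lower, where over all genes 35.5% of the 12338 genes at or above the FPKM minimum were called higher and 23.6% lower. The split was 4381 higher and 2909 lower with the spike-ins, 4068 and 4116 with TMM. *Lifr* had 5616, 6361 and 6452 in ETR-tKO against 775, 826 and 988, a log2 fold change of 2.83 ± 0.13 (SE, adjusted p = 1.8e-21), 7.12-fold. *Il6st* had 4421, 5997 and 5646 against 1058, 1095 and 1139, or 2.29 ± 0.14 (SE, adjusted p = 1.28e-17), 4.88-fold. *Jak3* had 1039, 749 and 780.1 against 235, 270.1 and 235, or 1.80 ± 0.16 (SE, adjusted p = 8.53e-13). ETR-tKO replicate 13 stood apart from the other 2 lines, lower in *Il6st* and *Jak2* and higher in *Jak3*, and none of these calls depended on it. *Jak2* had 215, 373 and 332 against 528, 549.7 and 520.3, or -0.81 ± 0.17 (SE, adjusted p = 0.000105). *Socs3* had 90.4, 109.6 and 98.7 against 241, 264 and 242, or -1.32 ± 0.26 (SE, adjusted p = 3.49e-05). These 5 calls held under every alternative. *Jak1* had 1000.3, 1403 and 1400.2 against 1436, 1729 and 1647, without overlap, and its log2 fold change of -0.34 ± 0.15 (SE, adjusted p = 0.0507) was not called but became so with TMM, at -0.47 (adjusted p = 0.000181). *Stat3* was not called and had 785, 1033 and 1017 against 866, 938 and 934. Genotype and time in N2B27 cannot be told apart here. Of the pluripotency markers 5 of 5 were called higher and 0 lower (5 and 0 with TMM) in this comparison, and of the formative markers 0 of 4 were called higher and 4 lower (0 and 4 with TMM), and their part in the members' differences was not tested.

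Against RGd2 2i p5, *Lifr*, *Jak3* and *Socs3* were called higher in ETR-tKO and *Jak2* lower, where over all genes 37.7% of the 11814 genes at or above the FPKM minimum were called higher and 9.53% lower. The split was 4459 higher and 1126 lower with the spike-ins, 2721 and 3161 with TMM. *Lifr* differed by 1.35 ± 0.12 (SE, adjusted p = 5.28e-12) and by 1.10 with TMM, and it was higher in all 3 lines than in any RGd2 2i p5 library. *Socs3* differed by 3.90 ± 0.41 (SE, adjusted p = 2.92e-10), a ratio of 15.1, with a 95% exact counting interval of 8.87 to 27.8. In RGd2 at N72h, also without inhibitors, every library had more *Socs3* than any ETR-tKO library. ETR-tKO cells were in N2B27 alone and RGd2 2i p5 cells in 2i, so genotype and medium cannot be told apart in this comparison. *Jak3* at 0.47 ± 0.15 (SE, adjusted p = 0.0108) was not called with TMM (0.23, adjusted p = 0.199), nor without RGd2 2i p5 replicate 2, at 0.42, or ETR-tKO replicate 13, at 0.31. *Jak2* at -0.58 ± 0.17 (SE, adjusted p = 0.00691) was lost without the same libraries, at -0.48 and -0.37. *Il6st*, *Jak1* and *Stat3* overlapped between the groups and were not called, but without ETR-tKO replicate 13 *Il6st* was, at 0.35 (adjusted p = 0.0376), and so was *Stat3*, at 0.34 (adjusted p = 0.0346). Of the pluripotency markers 4 of 5 were called higher and 0 lower (1 and 0 with TMM) in this comparison, and of the formative markers 3 of 3 were called higher and 0 lower (3 and 0 with TMM), and their part in the members' differences was not tested.

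**Figure D2:**
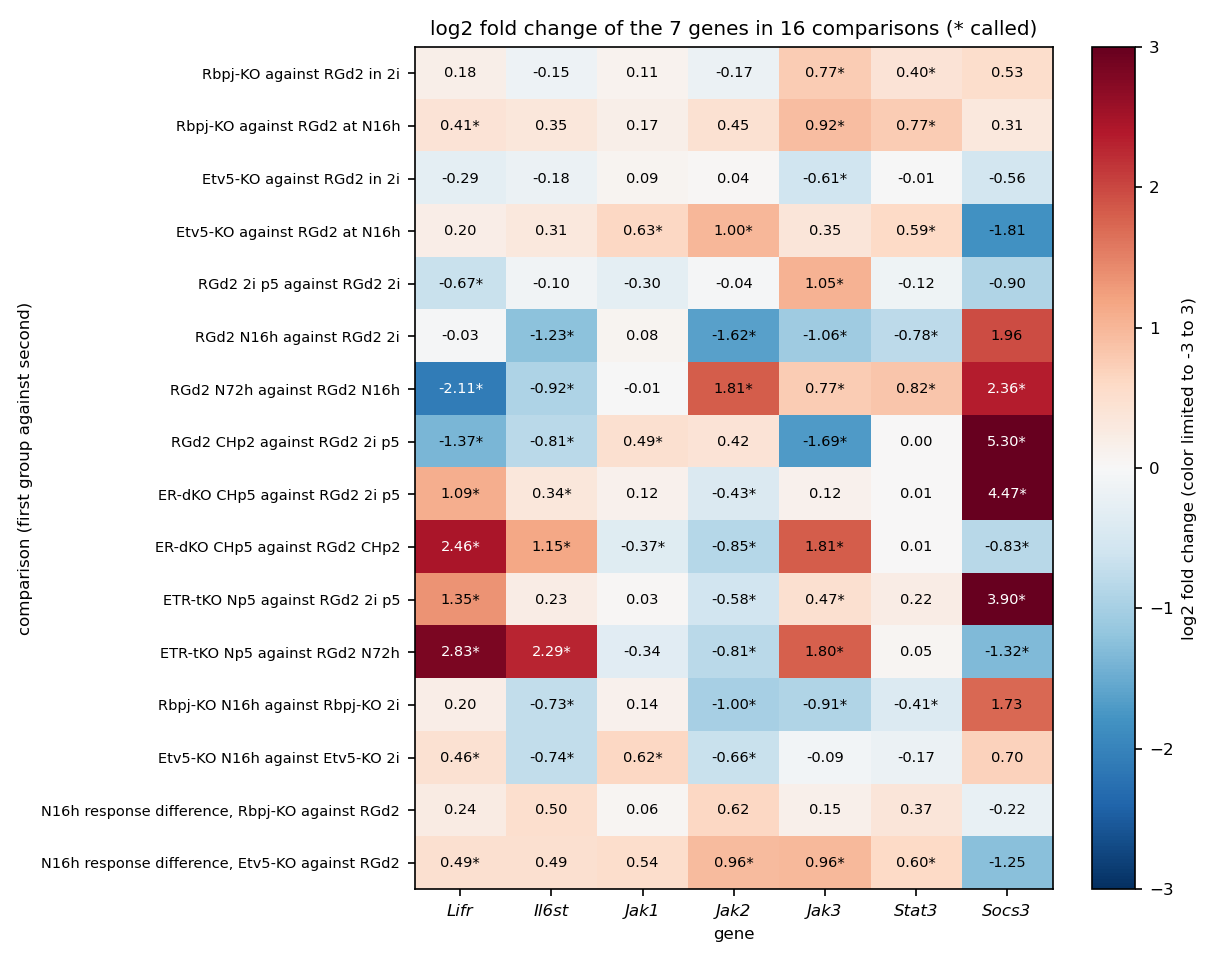
log2 fold change (number and color, with the color limited to -3 to 3) of the 7 genes (columns) in the 16 comparisons (rows, first group against second), from the spike-in scaled edgeR model; asterisks mark called genes. Lifr is the member with the largest positive values in ER-dKO and ETR-tKO against RGd2 in the same medium (2.46 and 2.83), and Stat3 is near 0 in both of these (0.01 and 0.05).

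RBPJ is the DNA-binding effector of Notch signaling. In 2i, *Rbpj*-KO cells had more *Jak3* and *Stat3* than RGd2, and no member was called lower, where over all genes 5.24% of the 11546 genes at or above the FPKM minimum were called higher and 6.12% lower. The split of calls was 605 higher and 707 lower with the spike-ins, 1248 and 901 with TMM. *Jak3* had 583, 457 and 501 in *Rbpj*-KO against 329, 263 and 311 in RGd2, a log2 fold change of 0.77 ± 0.16 (SE, adjusted p = 0.000681). *Stat3* had 1223, 1129 and 1152 against 1020.1, 848 and 755, or 0.40 ± 0.12 (SE, adjusted p = 0.0287). All 3 *Rbpj*-KO lines were above all RGd2 libraries for both genes. With TMM, *Lifr* was also called higher, at 0.22 (adjusted p = 0.0425). The *Stat3* call was lost with total spike-in size factors (adjusted p = 0.0722), in a fit of only these libraries (adjusted p = 0.348), and without RGd2 2i replicate 32 or 33 or any 1 *Rbpj*-KO line, where its log2 fold change was 0.32 to 0.42. The *Jak3* call held throughout.

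At N16h, *Lifr*, *Jak3* and *Stat3* were higher in *Rbpj*-KO and again no member was called lower. Over all genes 18.8% of the 11717 genes at or above the FPKM minimum were called higher and 3.41% lower, and the split was 2205 higher and 400 lower with the spike-ins, 1700 and 1319 with TMM. *Lifr* had 4461, 4966 and 5467 against 4001, 3600.1 and 3596, a log2 fold change of 0.41 ± 0.12 (SE, adjusted p = 0.0106), and this was lost without RGd2 N16h replicate 23 (0.39) or *Rbpj*-KO replicate 21 (0.34). *Jak3* had 281, 271 and 263 against 157, 147 and 126, or 0.92 ± 0.16 (SE, adjusted p = 4.54e-05). *Stat3* had 794, 813 and 1037 against 561, 481 and 507, or 0.77 ± 0.12 (SE, adjusted p = 8.35e-06). *Jak3* and *Stat3* were called under every alternative, with 0.77 and 0.62 under TMM, and no library of one group reached the other. *Il6st* at 0.35 ± 0.13 (SE, adjusted p = 0.056) and *Jak2* at 0.45 ± 0.18 (SE, adjusted p = 0.0877) also had libraries that did not overlap but missed the threshold. *Il6st* was called in 3 of 13 alternatives, among them the run without the low-count filter (adjusted p = 0.0317), and *Jak2* in 0 of 13. *Socs3* had 61.5, 38.3 and 79.2 against 48.8, 46.0 and 50.1, and its log2 fold change of 0.31 ± 0.29 (SE, adjusted p = 0.524) was within the spread. Markers moved with these differences. All 3 neural genes were called higher in *Rbpj*-KO, with a mean FPKM of 16.1 against 1.40 for *Nes*, 2.37 against 1.45 for *Pax6* and 1.89 against 1.13 for *Sox1*, the last not called with TMM. All 4 formative genes were called lower (-1.91 ± 0.24 for *Pou3f1*, -1.18 ± 0.12 for *Dnmt3b*, -1.16 ± 0.30 for *Fgf5* and -0.53 ± 0.12 for *Otx2*), 4 of 5 pluripotency genes were called higher (2 with TMM), and their part in the members' differences was not tested.

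The response of *Rbpj*-KO to 2i withdrawal had the same directions as that of RGd2 in the members called in both. *Il6st* fell by 0.73 ± 0.13 (log2, SE), *Jak2* by 1.004 ± 0.18, *Jak3* by 0.91 ± 0.16 and *Stat3* by 0.41 ± 0.12, and all 4 were called, where 11.6% of the 11776 genes at or above the FPKM minimum were called higher and 16.3% lower. *Stat3* had an adjusted p of 0.0122 and was lost without *Rbpj*-KO N16h replicate 19 (-0.33) or 20 (-0.35). *Socs3* went from 18.9, 7.16 and 27.7 to 61.5, 38.3 and 79.2, or 1.73 ± 0.34 (SE, adjusted p = 0.00014), below the FPKM minimum in both groups. With TMM, *Lifr* was called higher at 0.23 (adjusted p = 0.0205). Tested directly, the difference between the responses of *Rbpj*-KO and RGd2 was called for no member by edgeR or by DESeq2, whereas 3.79% of the 12162 genes at or above the FPKM minimum were called higher and 0.238% lower. At an unadjusted p under 0.05, 3 members passed, *Il6st*, *Jak2* and *Stat3*, and *Stat3* had 0.37 ± 0.17 (SE, adjusted p = 0.297). Without RGd2 2i replicate 33, *Il6st* at 0.69 (adjusted p = 0.00173) and *Jak2* at 0.77 (adjusted p = 0.0354) were called.

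ETV5 is an ETS factor that acts downstream of ERK. In 2i, *Jak3* was the only member called in *Etv5*-KO and it was lower, where over all genes 6.14% of the 11569 genes at or above the FPKM minimum were called higher and 27.9% lower. The split was 710 higher and 3227 lower with the spike-ins, 2115 and 1689 with TMM. *Jak3* had 244, 176 and 168 in *Etv5*-KO against 329, 263 and 311, a log2 fold change of -0.61 ± 0.16 (SE, adjusted p = 0.00418), without overlap, and it was not called with TMM (-0.38, adjusted p = 0.0635) or in a fit of only these libraries (adjusted p = 0.0529). *Lifr* had 3257, 3074 and 3002, at -0.29 ± 0.12 (SE, adjusted p = 0.0572), and became called without RGd2 2i replicate 33 at -0.45 (adjusted p = 0.000774), as did *Il6st* at -0.38 (adjusted p = 0.00491). With TMM, *Jak1* was the member called, at 0.31 (adjusted p = 0.0217).

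At N16h, *Jak1*, *Jak2* and *Stat3* were higher in *Etv5*-KO than in RGd2. Over all genes 29.3% of the 11735 genes at or above the FPKM minimum were called higher and 3.24% lower, and the split was 3437 higher and 380 lower with the spike-ins, 1915 and 1501 with TMM. *Jak1* had 2396 and 2591 in the 2 *Etv5*-KO lines against 1651, 1608 and 1576, a log2 fold change of 0.63 ± 0.16 (SE, adjusted p = 0.003), lost without *Etv5*-KO replicate 18 at 0.57 (adjusted p = 0.0568), where the remaining library is assumed to vary like the other groups. *Jak2* had 263 and 343 against 173, 128 and 155, or 1.003 ± 0.19 (SE, adjusted p = 9.93e-05). *Stat3* had 738 and 819 against 561, 481 and 507, or 0.59 ± 0.13 (SE, adjusted p = 0.000895). These 3 genes were also called with TMM, at 0.39, 0.76 and 0.36. Of the pluripotency markers 5 of 5 were called higher and 0 lower (4 and 0 with TMM) in this comparison, and of the formative markers 0 of 4 were called higher and 4 lower (0 and 4 with TMM), and their part in the members' differences was not tested.

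*Socs3* went the other way. At N16h its normalized counts were 17.6 and 9.86 in *Etv5*-KO and 48.8, 46.0 and 50.1 in RGd2, and the groups were far apart. The log2 fold change was -1.81 ± 0.38 (SE, adjusted p = 0.000295), below the FPKM minimum in both groups and so not counted as called. From 37 and 203 counts, the ratio was 0.283, with a 95% exact counting interval of 0.194 to 0.404.

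On withdrawal of 2i, *Etv5*-KO cells had lower *Il6st* and *Jak2* and higher *Lifr* and *Jak1*, where 31.3% of the 11832 genes at or above the FPKM minimum were called higher and 9.47% lower and the split was 3698 higher and 1120 lower with the spike-ins, 2470 and 2828 with TMM. *Il6st* went from 4657, 4430.4 and 3841 to 2538 and 2629, or -0.74 ± 0.15 (SE, adjusted p = 0.0001). *Jak2* changed by -0.66 ± 0.19 (SE, adjusted p = 0.00522) and was lost without *Etv5*-KO N16h replicate 17 (-0.49). *Lifr* rose by 0.46 ± 0.13 (SE, adjusted p = 0.0051) and *Jak1* by 0.62 ± 0.16 (SE, adjusted p = 0.00238). With the clonal line as a block, *Lifr* at 0.49 had an adjusted p of 0.0538, and it was also lost without *Etv5*-KO N16h replicate 18 (0.43). *Jak3* and *Stat3*, which fell in RGd2 and *Rbpj*-KO, were not called in *Etv5*-KO, although *Stat3* was with TMM (-0.40, adjusted p = 0.000996). *Socs3* had 12.5, 6.75 and 5.68 in 2i and 17.6 and 9.86 at N16h, with overlapping libraries.

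Tested directly, the response of *Etv5*-KO differed from that of RGd2 upward in 4 members, where 36.7% of the 12246 genes at or above the FPKM minimum were called higher and 0.531% lower and the split was 4499 higher and 65 lower with the spike-ins, 1037 and 587 with TMM. The differences were 0.49 ± 0.18 (SE, adjusted p = 0.0341) for *Lifr*, 0.96 ± 0.26 (SE, adjusted p = 0.00492) for *Jak2*, 0.96 ± 0.24 (SE, adjusted p = 0.00303) for *Jak3* and 0.60 ± 0.18 (SE, adjusted p = 0.0128) for *Stat3*. The median of all genes tested was itself 0.44, and with TMM the values were 0.04, 0.50, 0.50 and 0.15 and none was called, so relative to other genes a difference in response was not shown for these members. With the clonal line as a block 2 members were called, and *Lifr* (adjusted p = 0.169) and *Stat3* (adjusted p = 0.0674) were not. Without *Etv5*-KO N16h replicate 18 only *Jak3* was called, at 0.93 (adjusted p = 0.0219), and without RGd2 2i replicate 31 neither *Lifr* (0.33) nor *Stat3* (0.48) was. Without RGd2 2i replicate 33, 6 members were called, adding *Il6st* at 0.69 (adjusted p = 0.000559) and *Jak1* at 0.73 (adjusted p = 0.00197). *Socs3*, at -1.25 ± 0.59 (SE, adjusted p = 0.107), had the opposite sign in both scalings (-1.75 with TMM, adjusted p = 0.0521) and did not pass.

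**Figure D3:**
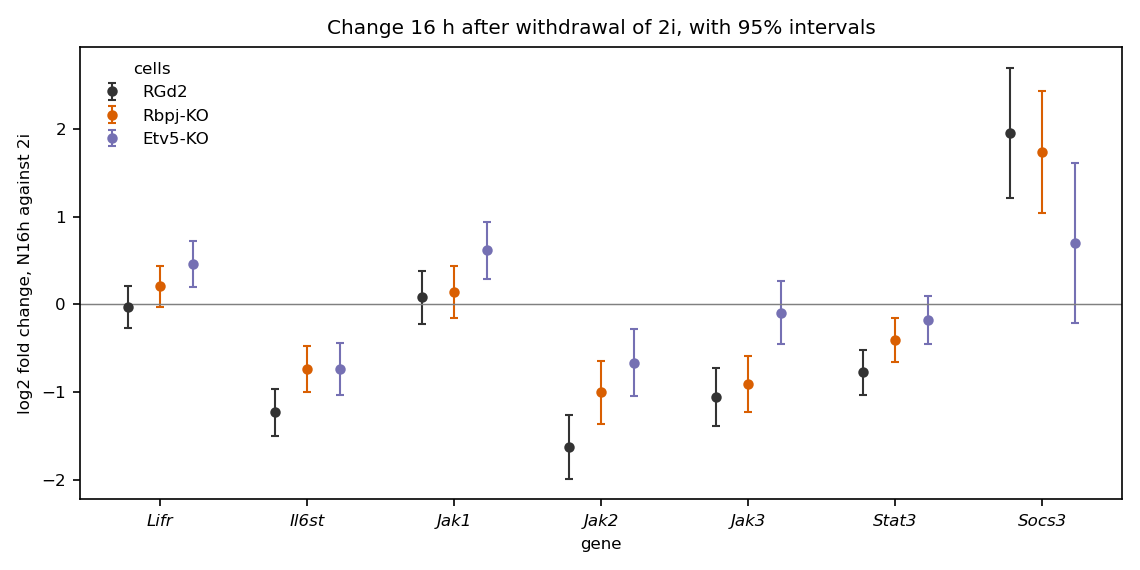
log2 fold change at N16h against 2i (vertical axis) of the 7 genes in RGd2, Rbpj-KO and Etv5-KO; points are estimates from the spike-in scaled edgeR model and bars their 95% intervals. Il6st and Jak2 are below 0 in the 3 genotypes, and the Etv5-KO point is the highest of the 3 for Lifr, Jak1, Jak2, Jak3 and Stat3 and the lowest for Socs3.

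Other genes of the pathway were taken from lists by role. Among the 8 ligands of the family, *Lif* itself was transcribed, at a mean normalized count of 77.8 in RGd2 at N16h to 285 in ETR-tKO, and *Il6* had at most 1 count in any library. *Osm*, the oncostatin M gene, was present in 2i and lost on leaving it: it had 279, 241 and 137 in RGd2 in 2i and 25.9, 13.6 and 8.19 at N16h, a log2 fold change of -3.80 ± 0.33 (SE, adjusted p = 2.92e-12). It was likewise lower in RGd2 CHp2 (-4.08 ± 0.44), ER-dKO (-3.30 ± 0.34) and ETR-tKO (-3.77 ± 0.37) than at 2i p5, and lower in *Rbpj*-KO than in RGd2 in 2i (-1.67 ± 0.30). Ligands at or above the FPKM minimum numbered 1 to 4 per comparison.

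Of the 5 other receptors, *Cntfr*, the alpha receptor of ciliary neurotrophic factor, rose on 2i withdrawal in all 3 genotypes: by 3.91 ± 0.21 (SE, adjusted p = 1.24e-18) in RGd2, 3.38 ± 0.19 (SE, adjusted p = 1.16e-17) in *Rbpj*-KO and 5.09 ± 0.23 (SE, adjusted p = 1.07e-20) in *Etv5*-KO. In RGd2 its libraries went from 66.3, 51.9 and 125 to 1183, 987 and 952, while *Il6st*, a subunit it signals through, fell. *Lifr* did not fall there, at -0.03 ± 0.12 (SE, adjusted p = 0.864), and 0.19 with TMM (adjusted p = 0.0483). *Il6ra*, the interleukin-6 receptor, was higher in *Rbpj*-KO in 2i (1.38 ± 0.18 (SE, adjusted p = 3.77e-07)), in ER-dKO than in RGd2 CHp2 (3.77 ± 0.21 (SE, adjusted p = 3.01e-18)) and in ER-dKO than in RGd2 2i p5 (2.34 ± 0.18 (SE, adjusted p = 2.65e-13)), with libraries of 957, 828 and 942 in ER-dKO. On withdrawal of 2i it fell in *Rbpj*-KO (-2.05 ± 0.19). In RGd2 it was below the FPKM minimum in both groups and went from 239, 205 and 206 to 28.1, 23.0 and 24.6 (-3.11 ± 0.22). Of the 7 other JAK and STAT genes 5 reached the FPKM minimum, and in RGd2 0 of 5 were called higher and 2 lower (with TMM 2 and 2, all genes 8.63% and 37.4%) at N16h. Between N16h and N72h 2 of 5 were called higher and 3 lower (with TMM 2 and 3, all genes 31.3% and 29.6%). *Stat5b*, a STAT best known from growth hormone signaling, rose in the second step (1.81 ± 0.20), as *Stat3* did, and it was also higher in *Rbpj*-KO at N16h (0.76 ± 0.20). *Stat4* rose on withdrawal in *Rbpj*-KO (1.81 ± 0.21), by more than in RGd2 (difference 1.58 ± 0.29 (SE, adjusted p = 0.000543)), and *Stat2* was the only gene of these lists called higher in *Etv5*-KO in 2i (0.33 ± 0.13 (SE, adjusted p = 0.0448)).

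Of the 14 other negative regulators (SOCS and PIAS genes and phosphatases), 0 of 13 were called higher and 5 lower (with TMM 2 and 4, all genes 8.63% and 37.4%) in RGd2 at N16h. From N16h to N72h, 3 of 13 were called higher and 2 lower (with TMM 3 and 3, all genes 31.3% and 29.6%). In CHp2 against 2i p5, 4 of 13 were called higher and 4 lower (with TMM 3 and 4, all genes 28.6% and 13.6%). In ER-dKO, 5 of 13 were called higher and 2 lower (with TMM 4 and 2, all genes 28.3% and 21.3%) against CHp2 and 4 of 12 were called higher and 1 lower (with TMM 3 and 3, all genes 33.9% and 8.43%) against 2i p5. In ETR-tKO, 4 of 13 were called higher and 1 lower (with TMM 4 and 2, all genes 35.5% and 23.6%) against N72h and 6 of 13 were called higher and 1 lower (with TMM 3 and 4, all genes 37.7% and 9.53%) against 2i p5. At 2i p5 against 2i, 0 of 13 were called higher and 7 lower (with TMM 2 and 2, all genes 2.89% and 49.4%). In *Rbpj*-KO, 0 of 13 were called higher and 0 lower (with TMM 1 and 0, all genes 5.24% and 6.12%) in 2i and 2 of 11 were called higher and 0 lower (with TMM 1 and 0, all genes 18.8% and 3.41%) at N16h. In *Etv5*-KO, 0 of 13 were called higher and 5 lower (with TMM 1 and 3, all genes 6.14% and 27.9%) in 2i and 3 of 12 were called higher and 1 lower (with TMM 1 and 1, all genes 29.3% and 3.24%) at N16h. *Socs1*, the relative of *Socs3* that binds JAKs directly, was lower at 2i p5 than in 2i (-1.76 ± 0.45 (SE, adjusted p = 0.00237)), higher in CHp2 than at 2i p5 (2.79 ± 0.43) and higher at N72h than at N16h (1.13 ± 0.37). The 5 adaptors that lead from the receptor to ERK and PI3K all reached the FPKM minimum. Of them 0 were called higher and 1 lower in RGd2 at N16h (1 higher with TMM, all genes 8.63% and 37.4%). From N16h to N72h 1 was called higher and 3 lower (all genes 31.3% and 29.6%). In ER-dKO against CHp2 4 were called higher and 0 lower (all genes 28.3% and 21.3%), and in ETR-tKO against N72h 3 higher and 1 lower (all genes 35.5% and 23.6%).

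The 10 genes listed as STAT3 targets did not move as one group. In RGd2 at N16h, 3 of 9 were called higher and 3 lower (all genes 8.63% and 37.4%, median 0.22 over the list and -0.23 over all genes). *Tfcp2l1*, a naive pluripotency factor, fell by 2.48 ± 0.14 (log2, SE) and *Klf4* by 1.39 ± 0.13, while *Gbx2* rose by 2.17 ± 0.18 and *Myc* by 1.55 ± 0.16. *Tfcp2l1* had 29627, 25410.5 and 21517 in 2i and 4548, 4304 and 4846 at N16h. From N16h to N72h, 2 of 9 were called higher and 6 lower (all genes 31.3% and 29.6%, median -1.70 over the list and 0.00 over all genes). *Gbx2*, *Klf4* and *Tfcp2l1* fell (-3.37 ± 0.19, -3.05 ± 0.16 and -2.91 ± 0.14) and *Junb*, an immediate early gene, rose (2.90 ± 0.25). In CHp2 against 2i p5, 4 of 9 were called higher and 3 lower (all genes 28.6% and 13.6%), with *Junb* (3.998 ± 0.29) and *Gbx2* (2.96 ± 0.20) up and *Tfcp2l1* (-2.10 ± 0.14) down. *Junb* was thus called higher in both comparisons in which *Socs3* was called higher in RGd2. *Tfcp2l1* fell in both, whereas *Gbx2* fell from N16h to N72h and rose in CHp2.

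In ER-dKO against RGd2 CHp2, 4 of 9 were called higher and 5 lower (all genes 28.3% and 21.3%), with *Klf4* (3.18 ± 0.14) and *Tfcp2l1* (2.07 ± 0.14) higher and *Gbx2* (-4.62 ± 0.21) and *Junb* (-3.60 ± 0.25) lower. In ETR-tKO against N72h, 5 of 9 were called higher and 2 lower (all genes 35.5% and 23.6%), led by *Klf4* (5.45 ± 0.17), *Tfcp2l1* (4.80 ± 0.16) and *Klf5* (2.24 ± 0.16). *Klf4* had 2276, 3034 and 2900.0 in ETR-tKO, 64.3, 65.6 and 59.7 in RGd2 at N72h and 900.2, 979 and 717 at 2i p5. Against 2i p5, 3 of 8 were called higher and 2 lower (with TMM 2 and 2, all genes 33.9% and 8.43%) in ER-dKO and 7 of 9 were called higher and 1 lower (with TMM 6 and 2, all genes 37.7% and 9.53%) in ETR-tKO, and *Klf4* was higher in both (1.96 ± 0.13 and 1.66 ± 0.13). Comparing 2i p5 with 2i, 0 of 8 were called higher and 6 lower (with TMM 0 and 3, all genes 2.89% and 49.4%), led by *Myc* (-1.84 ± 0.19).

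In *Rbpj*-KO against RGd2, 1 of 8 were called higher and 2 lower in 2i (all genes 5.24% and 6.12%) and 3 of 9 were called higher and 1 lower at N16h (all genes 18.8% and 3.41%). *Klf4* was higher at both (0.74 ± 0.13 and 0.86 ± 0.13), *Gbx2* lower in 2i (-2.09 ± 0.22) and *Myc* lower at N16h (-0.41 ± 0.15 (SE, adjusted p = 0.0429)). In *Etv5*-KO, 0 of 8 were called higher and 5 lower (with TMM 2 and 5, all genes 6.14% and 27.9%) in 2i, led by *Gbx2* (-2.53 ± 0.21) and *Myc* (-1.996 ± 0.17). At N16h 4 of 9 were called higher and 1 lower (all genes 29.3% and 3.24%), where *Klf5* (1.18 ± 0.17), *Junb* (1.13 ± 0.27) and *Tfcp2l1* (1.07 ± 0.14) were higher and *Gbx2* (-0.76 ± 0.19) lower. *Junb* was higher there while *Socs3* was lower. In the difference of the *Etv5*-KO and RGd2 responses, 8 of 9 targets were called higher with the spike-ins (all genes 36.7%) and 4 with TMM. Most of these targets also answer to ERK, WNT or pluripotency factors, so their counts are no measure of STAT3 activity.

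**Figure D4:**
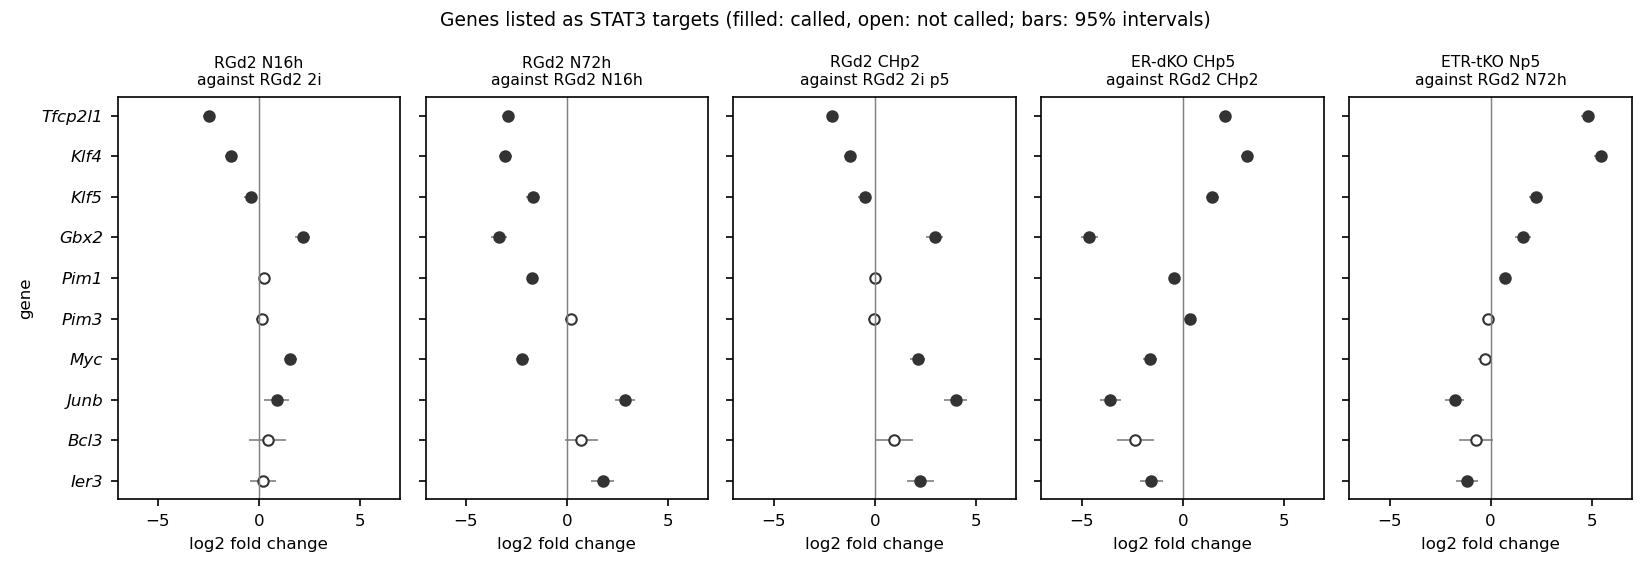
log2 fold change (horizontal axes) of the 10 genes listed as STAT3 targets (vertical axis) in 5 comparisons; filled points were called, open points were not, and bars are 95% intervals. Tfcp2l1, Klf4 and Klf5 lie below 0 in the 3 RGd2 comparisons and above 0 in both mutants, whereas Junb and Ier3 lie on the opposite side of 0 in each of the 5 panels.

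Genes whose means over the 11 conditions were most like each member were taken from 13324 candidates by Pearson's r of log2 normalized counts, as a description, since the conditions share cell lines and scaling. They were *Gsta4* (r = 0.988), *Zfp229* (r = 0.976) and *Gm14412* (r = 0.968) for *Lifr*, *Myh13* (r = 0.984), *Gstm1* (r = 0.963) and *Csrnp2* (r = 0.962) for *Il6st*, *Afg3l1* (r = 0.924), *Slc3a2* (r = 0.903) and *Sarm1* (r = 0.900) for *Jak1*, *Fam107b* (r = 0.965), *Zfp839* (r = 0.944) and *Mroh1* (r = 0.938) for *Jak2*, *Pmm1* (r = 0.953), *P2rx7* (r = 0.937) and *Has3* (r = 0.926) for *Jak3*, *Frmd8* (r = 0.975), *Tmem101* (r = 0.925) and *Mpst* (r = 0.896) for *Stat3* and *Zfp37* (r = 0.968), *Ftx* (r = 0.957) and *Tarsl2* (r = 0.951) for *Socs3*. Among the members, r was highest between *Il6st* and *Jak3* (0.66) and between *Lifr* and *Il6st* (0.64), lowest between *Jak1* and *Jak3* (-0.71), and -0.06 between *Stat3* and its target *Socs3*.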

How the data were processed

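RNA-seq libraries of 32 mouse embryonic stem cell samples in 11 conditions were used. Per the protocol in the labels and the study's methods ribosomal RNA was depleted, although the labels' molecule field reads polyA RNA. Per the labels and the methods, strand-specific libraries with ERCC spike-in RNA were sequenced as paired ends, and the authors used Trim Galore for trimming, TopHat2 for alignment to mm10 and featureCounts for strand-specific counting of unique primary alignments (versions not given in the sources used here). The deposited values were raw counts per gene and spike-in, with counted lengths, and no column was left unmapped. IDs without a symbol (193) held 0.0259% of the counts.

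From these counts, 1 model of all 32 libraries was fitted in edgeR 4.0.16 (quasi-likelihood F test, R 4.3.3) with median-of-ratios size factors from 52 of the 92 spike-ins, after filterByExpr kept 18892 genes. A call required an adjusted p (Benjamini-Hochberg) under 0.05, and 1 or more of the groups compared had to reach a mean FPKM of 1. FPKM was computed from the deposited counts, and SE is the log2 fold change divided by the square root of F. The model was tested on simulated data. Promoters came from RefSeq (GRCm38.p6) and figures were drawn with matplotlib 3.10.9. Alternatives were TMM, gene median-of-ratios and total spike-in size factors, DESeq2 1.42.0, fits of only the libraries compared, no low-count filter, no FPKM minimum, a block by clonal line and leaving out each library.

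The members, gene lists and tests were chosen with earlier results of these data known. Of the other pathway genes, the rule was to name in a comparison up to 3 genes that rose most and up to 3 that fell most among those called, and genes at or under 3 counts in every library, and other genes were named after their values were seen. A ligand that the rule would name is not reported here. The 2i and N16h libraries of a genotype came from the same clonal lines, which pairs them, except that Etv5-KO line c16 was sampled in 2i only. Deviations of same-line libraries correlated at 0.109 to 0.229 in RGd2, 0.0467 to 0.156 in Rbpj-KO and -0.0153 and 0.0244 in Etv5-KO. With 2 libraries the deviations from their mean mirror each other, so the Etv5-KO values cannot show whether the pairing matters. RGd2 libraries of a condition came from the parental line and a clone, and mutant libraries from separate clonal lines. The spread behind each p-value was pooled over all 11 conditions, so it mixes these kinds of culture. Library depth limits the precision of Socs3 most, and its counting intervals cover counting error only.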

Additional observations from a re-analysis of the deposited data

Results flagged for a closer look

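In 4 members the response to withdrawal of 2i differed between Etv5-KO and RGd2 by the test of the difference itself (edgeR, spike-in scaling). The difference in log2 fold change, Etv5-KO minus RGd2, was 0.49 for *Lifr*, 0.96 for *Jak2*, 0.96 for *Jak3* and 0.60 for *Stat3*. The 4 values lie on a median of 0.44 over all genes tested in the same contrast, and none of them passed with TMM or gene median-of-ratios scaling. The cause was not tested. Etv5-KO at N16h had 2 libraries.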

How the results depend on the processing

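Scaling was the choice that moved the results most. For the difference of the Etv5-KO and RGd2 responses, 4 members were called with spike-in scaling, 0 with TMM or gene median-of-ratios scaling, and 2 in a fit of only the libraries compared and with the replicate block by clonal line. In Rbpj-KO against RGd2 in 2i, 1 member was called with total spike-in size factors and in a fit of only those libraries. In Etv5-KO against RGd2 in 2i, 2 were called with total spike-in size factors and with DESeq2, and 0 in a fit of only those libraries. The block also ended the call of *Lifr* in Etv5-KO at N16h against 2i (adjusted p = 0.0538) and brought a call of *Jak2* in RGd2 CHp2 against 2i p5 (0.41, adjusted p = 0.00769), and it changed no other call.

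Leaving out 1 library gave 1 to 6 members called for the Etv5-KO response difference, 0 to 2 for that of Rbpj-KO, 2 to 3 for ER-dKO and 2 to 4 for ETR-tKO against RGd2 2i p5, 1 to 3 for Etv5-KO and 1 to 2 for Rbpj-KO in 2i, and 2 to 4 for RGd2 2i p5 against 2i. *Il6st* at 2i p5 against 2i turned to 0.26 with TMM and 0.25 with gene median-of-ratios scaling and ranged from -0.29 to 0.12 on leaving out 1 library. *Lifr* at N16h against 2i in RGd2 turned to 0.19 and 0.20 and ranged from -0.19 to 0.13. In both cases the cause was not tested. Of 43 other uncalled pairs of member and comparison, 17 changed sign with TMM and 6 became called. The counts of *Socs3* in 2i limit the size of every fold against these groups.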
